A study of Homo sapiens with 12 samples.

Results

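The transcriptional response of 3 human hepatocellular carcinoma cell lines to compound #57, an allosteric inhibitor of the phosphatase SHP2, was compared with untreated cells of the same line. Huh7, Hep3B and MHCC97H are established liver cancer lines with a WT genotype in the labels. Each line gave 1 polyA+ RNA-seq library per treatment, so that the comparison rests on 6 of the 12 libraries of the series and on 3 pairs (compound #57 and untreated cells of 1 line). The other 6 libraries, from cells given the mTOR kinase inhibitor AZD8055 or the combination of both drugs, entered the fit and gave a second pair per line that shares no library with the first, namely combination against AZD8055. Huh7 and Hep3B cells were treated for 48 h and MHCC97H cells for 24 h, and what belongs to the line and what to the time cannot be told apart. There was 1 library per line and treatment, and nothing in the labels on separate cultures. In fits with the line as a term, the spread behind each p-value is what remains once differences in level between lines are fitted. It holds differences between lines in their response to any of the treatments, together with noise of single libraries. The dose of compound #57 given alone to the sequenced cells is not given in the sources used here, and untreated cells rather than vehicle-treated cells are the control in the labels. All 11548 genes of the deposited table were used.

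SHP2 is encoded by PTPN11. It is recruited to activated receptor tyrosine kinases (RTK) and their adaptors, such as GAB1, and is needed there for full activation of RAS and of the RAF, MEK and ERK kinases below it. ERK phosphorylates transcription factors of the ETS and AP-1 families and stabilises MYC, and it induces its own antagonists: the dual-specificity phosphatase DUSP6, the Sprouty and SPRED proteins and others. Levels of these feedback transcripts, and of the PEA3 factors ETV1, ETV4 and ETV5, are widely used as a readout of ERK output. In hepatocytes, RAS to ERK signalling is known for driving proliferation at the expense of liver-specific functions.

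The 6 libraries held between 10659951 reads (untreated Hep3B) and 15957252 reads (untreated Huh7). All 12 hepatocyte lineage markers were in the table. Levels below are normalised reads, that is, reads scaled to 10000000 per library and not divided by transcript length. The summed level of the markers was 449192 and 524341 normalised reads in untreated and treated Huh7, 386025 and 615683 in Hep3B, and 53392 and 55098 in MHCC97H, where TTR was listed at 0 in untreated cells. The markers include the keratins KRT8 and KRT18. All 34 secreted liver proteins described below, ALB, TF and APOA1 among them, summed to only 10569 in untreated MHCC97H. Of 20 markers of blood, endothelial, stromal and biliary cells, 8 were in the table, with a summed level between 3157 and 12017 normalised reads. PTPRC, CD3E, VWF and CDH5 were not among the 8, and COL1A2 was listed at 0 in both MHCC97H libraries. LYZ, lysozyme, was at 7518 against 1464, 1141 against 68.5 and 0.769 against 2.63 (untreated against compound #57, in the order Huh7, Hep3B, MHCC97H), and the biliary keratin KRT19 at 1237 against 1919, 1637 against 4390.4 and 2564 against 1724. Both passed in the limma fit to Huh7 and Hep3B described below, LYZ lower and KRT19 higher. Their part in the results was not tested.

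With compound #57, DUSP6, the Sprouty genes SPRY1, SPRY2 and SPRY4 and the PEA3 factors were lower in all 3 cell lines, the proapoptotic gene BMF was higher, and genes of ribosome production and glycolysis were mostly lower while those of cholesterol synthesis and of secreted liver proteins were mostly higher. BMF was the only one of 11548 genes past the threshold of limma over the 3 cell lines (0.00866% of genes, Benjamini-Hochberg adjusted p under 0.05). At an unadjusted p under 0.05, 1566 genes were higher (13.6%) and 935 lower (8.1%), and these shares are the background against which the members of a gene list are read below. The number of calls turned on single lines. By limma it was 0 without Huh7 (1171 genes at an unadjusted p under 0.05) and 1 without Hep3B, while the fit without MHCC97H, that is, to Huh7 and Hep3B alone, called 467 genes higher (4.04%) and 311 lower (2.69%). The shares of that fit are the background for list members said to have passed in it. Among the fits that left out a line it had the most calls. A gene that passed in it did so for Huh7 and Hep3B only, which is less than passing over the 3 lines. Within a line, where no test is possible, a difference was counted when it reached 2-fold with at least 50 reads in the higher library. In Huh7 these were 422 higher genes (3.87% of 10902) and 155 lower (1.42%), in Hep3B 957 higher (8.61% of 11112) and 393 lower (3.54%), and in MHCC97H 188 higher (1.81% of 10359) and 58 lower (0.56%). Only 189 genes were at least 1.5-fold higher in all 3 lines (1.95% of the 9709 genes with 50 reads in each pair) and 37 at least 1.5-fold lower (0.381%), which became 126 and 57 when each library was centred on its median. An exact permutation test on 1 gene over 3 pairs cannot give a two-sided p below 0.25.

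The changes of Huh7 and Hep3B were more alike than either was with MHCC97H. Over 9709 genes, Pearson's r between log2-fold changes was 0.729 for Huh7 and Hep3B (Spearman's rho 0.710), 0.371 for Huh7 and MHCC97H (0.378) and 0.395 for Hep3B and MHCC97H (0.413). Genes are not independent replicates, so these values describe 6 libraries. Changes were widest in Hep3B, with an SD over these genes of 0.652, against 0.440 in Huh7 and 0.340 in MHCC97H. MHCC97H libraries had no part in the fit without MHCC97H, and in them 368 of the 467 genes called higher were also higher (78.8%, against 61.9% of all genes), with a median log2-fold change of 0.38 where that of all genes was 0.082. Of the 311 called lower, 238 were also lower in MHCC97H (76.5%, against 37.3% of all genes), with a median of -0.17. Read the other way, the 188 genes at least 2-fold higher in MHCC97H were higher in Huh7 in 166 cases (88.3%, against 53.5% of all genes) and in Hep3B in 165 (87.8%, against 51.0%), but of the 58 at least 2-fold lower only 28 were lower in Huh7 (48.3%, against 46.4% of all genes) and 35 in Hep3B (60.3%, against 49.0%).

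**Figure D1:**
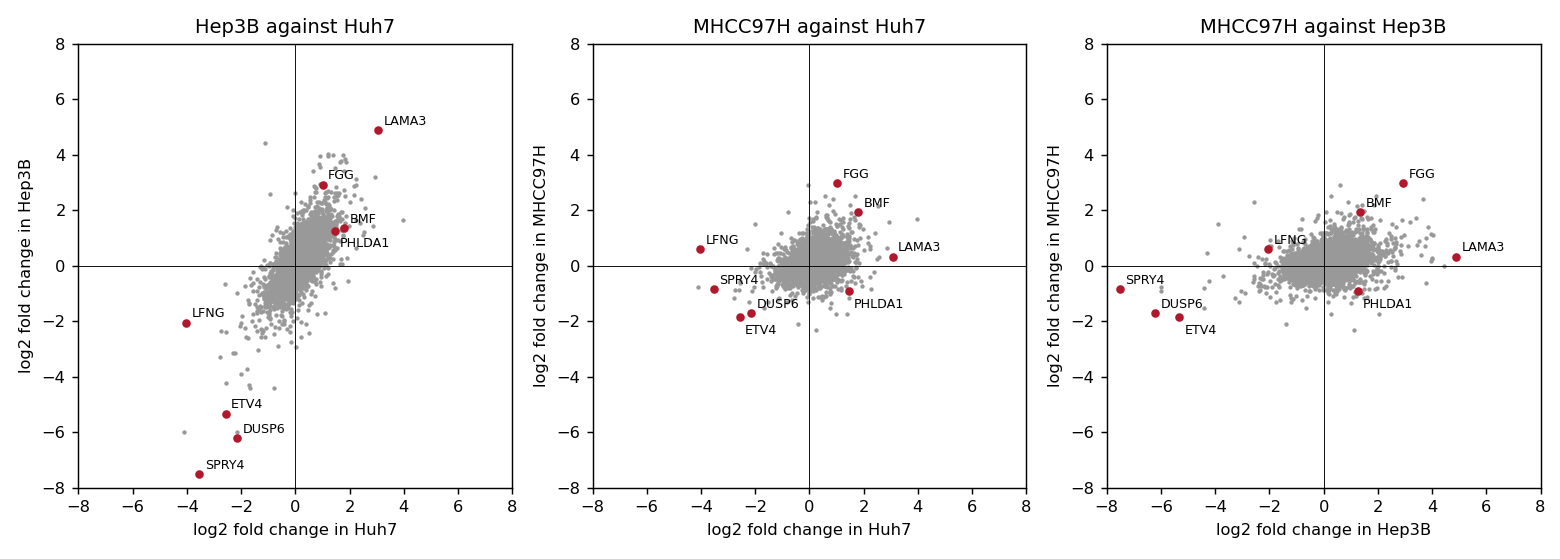
Each grey point is 1 of 9709 genes, plotted by its log2-fold change (compound #57 against untreated) in 2 cell lines, with 8 genes named in red. The cloud is elongated along the diagonal for Huh7 and Hep3B (r = 0.729) and rounder in both panels with MHCC97H (0.371 and 0.395), and LFNG and PHLDA1 have opposite signs in the 2 lines of those panels.

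The transcript of the drug's target did not differ beyond the spread of the fit. PTPN11 (chromosome 12, 112418351 to 112509918 of hg38) had 4415, 2855 and 4382 in untreated Huh7, Hep3B and MHCC97H and 4559, 3071 and 4413 with compound #57. The log2-fold changes were 0.046, 0.11 and 0.01 in Huh7, Hep3B and MHCC97H, and limma gave 0.054 (SE 0.14, adjusted p = 0.85), with a 95% interval of -0.25 to 0.36. An inhibitor acts on the protein, so the level of the transcript does not check the label. Among 28 SHP2 and RAS pathway components in the table, 6 were higher and 2 lower at an unadjusted p under 0.05 (21.4% and 7.1%, against 13.6% and 8.1% of all genes), and the list medians were 0.09, 0.13 and 0.17.

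GAB1, the docking protein that carries SHP2 to receptors, was higher in each pair, at 678, 229.8 and 134 in untreated Huh7, Hep3B and MHCC97H and 1132, 481 and 319 with compound #57. Its log2-fold changes were 0.74, 1.06 and 1.24, and it passed in the fit to Huh7 and Hep3B (adjusted p = 0.03) but not over the 3 lines (adjusted p = 0.091). SHC1, an adaptor that links receptors to GRB2 and SOS, was lower, at 828 against 727, 3342 against 1062 and 3702 against 2201 in the same order. SOS1, the exchange factor that loads RAS with GTP, was higher, at 625 against 819, 421 against 653 and 1368 against 3007, with a limma log2-fold change of 0.72 (SE 0.17, adjusted p = 0.091). HRAS, NRAS, MAP2K1 and MAP2K2 had unadjusted p-values above the threshold.

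The RAS-MAPK target genes had the lowest median of the 24 gene lists in each line. Of 10 genes fixed for the list, 9 were in the table. Their median log2-fold change was -2.05 in Huh7, -2.16 in Hep3B and -0.92 in MHCC97H, where the median of all genes was 0.032, 0.011 and 0.082. All 6 of SPRY2, SPRY4, DUSP6, ETV4, ETV5 and EPHA2 were lower in all 3 lines, had an unadjusted p under 0.05 and passed in the fit to Huh7 and Hep3B, and none passed over the 3 lines. These 6 were 66.7% of the list. With members under 25 reads left out, the median in Hep3B was -0.65, since DUSP6, SPRY4, ETV4 and ETV5 had under 25 reads with compound #57 there.

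DUSP6, the cytoplasmic phosphatase that dephosphorylates ERK itself (chromosome 12, 89347235 to 89352501), went from 1421 to 318 in Huh7, from 924 to 11.5 in Hep3B and from 1767 to 537 in MHCC97H. Every treated level was below every untreated one, and the difference was widest in Hep3B, with 985 reads untreated and 18 with compound #57. Its log2-fold changes were -2.16, -6.21 and -1.72 (Hep3B 95% interval -7.09 to -5.66, for counting error only, so that this and later intervals compare 2 libraries and not the conditions), and limma gave -3.36 (SE 0.70, adjusted p = 0.091). The SD of the change over the 3 lines was 2.48, beside a mean of -3.36.

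SPRY4, a Sprouty antagonist of RTK to RAS signalling (chromosome 5, 142310427 to 142326455), had 765, 530.0 and 343 in untreated Huh7, Hep3B and MHCC97H and 64.9, 1.92 and 191 with compound #57. Its read counts were 1220 and 88 in Huh7, 565 and 3 in Hep3B and 447 and 218 in MHCC97H, so that the log2-fold change of -7.51 in Hep3B rests on 3 reads (95% interval -10.39 to -6.55). SPRY2 was at 1015 against 244, 293 against 64.7 and 162 against 95.7 and SPRY1, a member of the list of other ERK feedback genes, had read counts of 477 and 68 in Huh7, 429 and 32 in Hep3B and 352 and 209 in MHCC97H. All 3 Sprouty genes were lower in every pair, and in each the change was smallest in MHCC97H (log2-fold changes there of -0.84, -0.75 and -0.56).

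The PEA3 factors, ETS family activators induced by ERK, were lower together. ETV4 (chromosome 17, 43527844 to 43579620) went from 1134 to 189.6 in Huh7, from 401 to 8.96 in Hep3B and from 473 to 129.9 in MHCC97H, with log2-fold changes of -2.57, -5.33 and -1.86. ETV5 (chromosome 3, 186046314 to 186110318) went from 1245 to 283 in Huh7, from 475 to 6.4 in Hep3B and from 869.7 to 458 in MHCC97H, with changes of -2.14, -6.01 and -0.92. ETV1 (chromosome 7, 13891229 to 13991425) went from 284 to 59.8 in Huh7, from 470.0 to 52.5 in Hep3B and from 105 to 42.1 in MHCC97H, with changes of -2.23, -3.14 and -1.30. In all 3 genes every treated library was below every untreated one. In the fit to Huh7 and Hep3B the adjusted p was 0.037 for ETV4, 0.044 for ETV5 and 0.025 for ETV1. Over the 3 lines they were 0.091, 0.11 and 0.091.

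EPHA2, the one RTK among the RAS-MAPK targets found in the table (chromosome 1, 16124337 to 16156069), was lower by nearly the same factor in every line. It had 1681, 1195 and 1704 in untreated Huh7, Hep3B and MHCC97H and 765, 519 and 769 with compound #57, and its log2-fold changes of -1.14, -1.20 and -1.15 had an SD of 0.035. Limma gave -1.16 (SE 0.26, adjusted p = 0.091) over the 3 lines and an adjusted p of 0.045 without MHCC97H. The 3 other members did not share a direction. PHLDA1, a pleckstrin-homology protein, was at 714 against 1949.9, 1147 against 2736 and 4113 against 2180.2, higher in Huh7 and Hep3B (adjusted p = 0.016 in the limma fit to these 2) and lower in MHCC97H. DUSP4, a nuclear ERK phosphatase, was at 434 against 459.6, 35.6 against 71.1 and 1459.7 against 837, and CCND1, which encodes cyclin D1, at 3938 against 4245, 1940.0 against 1233 and 3178 against 2864.

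**Figure D2:**
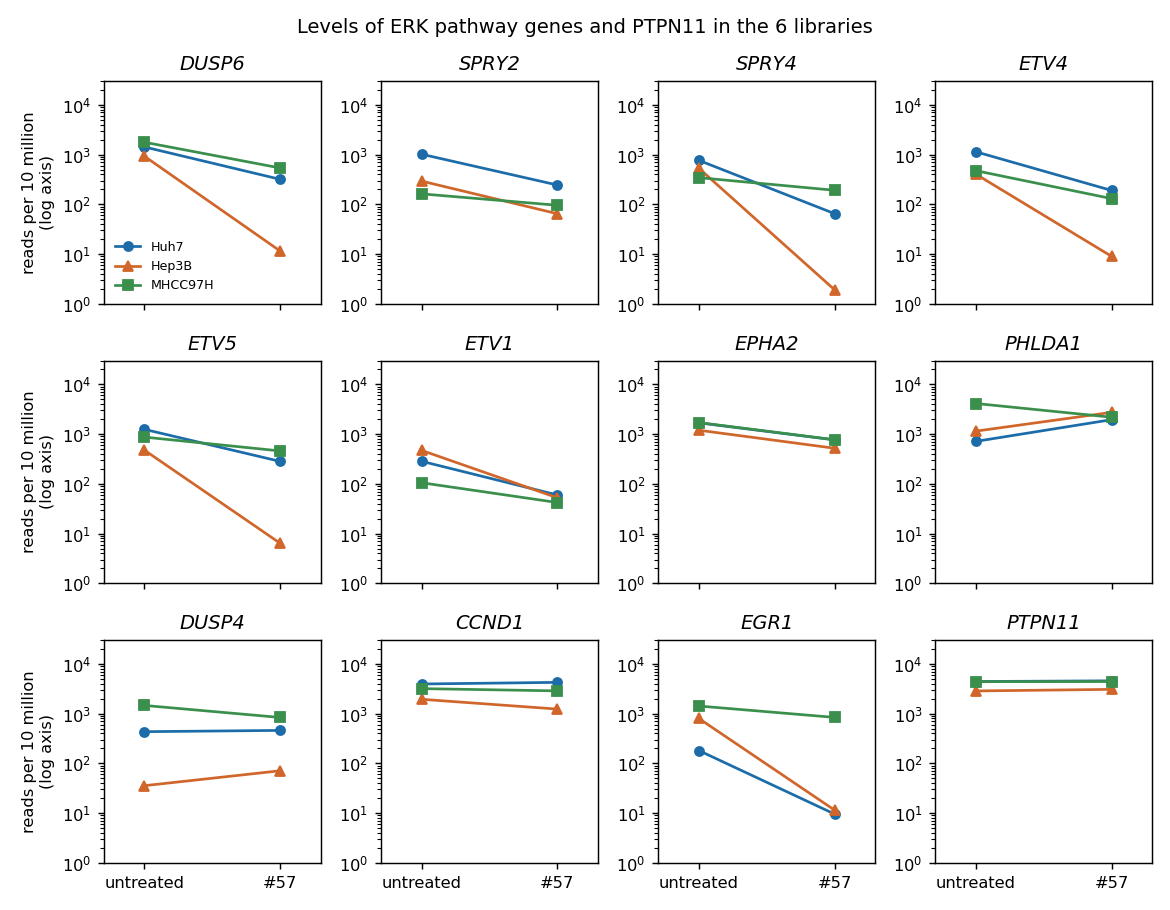
Level of 12 genes in the 6 libraries, in normalised reads (reads scaled to 10000000 per library, log axis), with a line joining untreated cells and cells with compound #57 of 1 cell line (blue circles Huh7, orange triangles Hep3B, green squares MHCC97H). The lines of DUSP6, SPRY2, SPRY4, ETV4, ETV5, ETV1, EPHA2 and EGR1 descend in all 3 cell lines and most steeply in Hep3B for DUSP6, SPRY4, ETV4 and ETV5, PTPN11 is level, and PHLDA1 crosses.

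Promoter sequences of these genes were looked up in RefSeq (GRCh38.p14), which gives 250 bases before to 50 after each start. Of 25 genes (the RAS-MAPK targets and the 20 genes with the largest shared change, below), 19 had 33 promoters. CCND1, DUSP4, ETV4, ETV5, IER3 and MIR6087 had none. An ETS core written as GGAAGT, searched on both strands, was in 2 of 7 promoters of the RAS-MAPK targets (EPHA2 and SPRY2), 2 of 13 of the 10 lower genes (EPHA2 and ETV1) and 4 of 15 of the 10 higher genes (ACSS2, BAAT, BMF and CXCL8), and in 22.8% of all 35116 promoters. An AP-1 site (TGANTCA) was in 1 promoter, that of CXCL8 (7.71% of all promoters), a cAMP response element (TGACGTCA) in those of EPHA2 and TP53INP2 (1.85%), and an E-box (CACGTG) in 1 of ETV1 (7.26%). A match is a description of these letters and not of binding. The 2 promoters below belong to the RTK with the most even decrease and to the gene called over the 3 lines. The first, the EPHA2 promoter, is the 250 bases before the start on the minus strand of hg38 (chr1:16156070-16156319), read 5′ to 3′ with ETS cores and the cAMP response element in capitals. The second is the same stretch before one start of BMF (chr15:40106967-40107216, minus strand), with its ETS core in capitals. The stretch before the other start of BMF (chr15:40108880-40109129, not shown) held 0 of the motifs searched.
EPHA2: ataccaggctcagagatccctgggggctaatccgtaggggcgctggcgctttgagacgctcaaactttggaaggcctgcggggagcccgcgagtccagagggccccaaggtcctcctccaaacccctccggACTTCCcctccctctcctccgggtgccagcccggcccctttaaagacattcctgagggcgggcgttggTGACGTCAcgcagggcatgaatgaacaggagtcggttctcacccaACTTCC
BMF: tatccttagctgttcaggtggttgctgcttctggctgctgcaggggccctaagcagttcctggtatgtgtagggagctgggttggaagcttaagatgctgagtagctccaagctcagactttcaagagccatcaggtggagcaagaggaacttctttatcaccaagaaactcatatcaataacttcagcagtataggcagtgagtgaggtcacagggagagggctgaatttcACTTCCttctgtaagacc

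Of 19 other ERK feedback genes, 5 were higher and 6 lower at an unadjusted p under 0.05 (26.3% and 31.6%), and their medians of -0.03, -0.15 and -0.09 were near 0 because the list split. On the lower side stood ETV1 and SPRY1, described above, the nuclear ERK phosphatase DUSP5 at 2303 against 388, 109 against 19.8 and 980.3 against 646, and the RAS-MAPK inhibitor SPRED1 at 342 against 142, 359 against 60.2 and 1554 against 1131. SPRED2 and DUSP7 were lower too, with log2-fold changes of -0.93, -1.58 and -0.52 and -0.71, -0.62 and -0.20. On the higher side stood DUSP1, DUSP8, DUSP10, DUSP16 and DUSP3, phosphatases with JNK or p38 among their substrates. DUSP1 went from 285 to 623 in Huh7, from 138 to 881 in Hep3B and from 141 to 159.8 in MHCC97H, and DUSP8 had log2-fold changes of 1.55, 1.67 and 0.67. Members named beyond the 2 that the rule takes from each list were picked after their values were seen.

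Immediate early genes differed in both directions. Of 26, 6 were higher and 7 lower at an unadjusted p under 0.05 (23.1% and 26.9%), with medians of 0.14 in Huh7, 0.12 in Hep3B and -0.13 in MHCC97H, while the means in Huh7 and Hep3B were -0.036 and -0.062. EGR1, a zinc finger factor induced by ERK through serum response elements (chromosome 5, 138465479 to 138469303), had 181, 798 and 1421 in untreated Huh7, Hep3B and MHCC97H and 9.59, 11.5 and 839 with compound #57. The log2-fold changes were -4.10, -6.00 and -0.76, so that the smallest difference was in MHCC97H. IER3, a short-lived ERK-induced regulator of survival (chromosome 6, 30743199 to 30744548), went from 177 to 67.9 in Huh7, from 1946 to 234 in Hep3B and from 801 to 427 in MHCC97H. FOS, the AP-1 subunit, was at 17.5 against 2.21, 42.2 against 2.56 and 163 against 147, with 3 and 4 reads left in treated Huh7 and Hep3B. MYC, the proliferation factor whose protein ERK stabilises, was at 818 against 303, 1714 against 533 and 2077 against 2077, and it passed in the fit to Huh7 and Hep3B (adjusted p = 0.019) while MHCC97H was level. The chromatin proteins HMGA1 and HMGA2, both oncofetal, were lower in all 3 lines, with log2-fold changes of -0.72, -1.22 and -1.04 and of -1.22, -2.40 and -0.73. ATF3, a stress-induced factor, and BTG2, an antiproliferative gene, were higher, with changes of 1.22, 1.73 and 1.33 and of 1.19, 1.76 and 1.39.

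BMF was the gene called over the 3 lines. BMF encodes a BH3-only protein that binds prosurvival BCL2 proteins and promotes apoptosis (chromosome 15, 40087890 to 40108892). It rose from 326 to 1133 in Huh7, from 614 to 1567 in Hep3B and from 169 to 652 in MHCC97H, and its read counts were 520 and 1536 in Huh7, 654 and 2447 in Hep3B and 220 and 743 in MHCC97H. Every treated library was above every untreated one. The log2-fold changes were 1.79 in Huh7 (95% interval 1.65 to 1.94), 1.35 in Hep3B (95% interval 1.23 to 1.48) and 1.94 in MHCC97H (95% interval 1.73 to 2.17), and limma gave 1.70 (SE 0.145, adjusted p = 0.00508). The adjusted p was 0.48 without Huh7, 0.037 without Hep3B and 0.016 without MHCC97H. It was 0.077 when the 6 libraries of the comparison alone were fitted, with the cell line as block.

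Other BCL2 family genes differed less. Of 14 family members in the table, BMF among them, 4 were higher and 1 lower at an unadjusted p under 0.05 (28.6% and 7.1%), with medians of 0.15, 0.19 and 0.13. BBC3, which encodes the BH3-only protein PUMA, was at 30.7 against 38.4, 77.9 against 143 and 50.7 against 90.4, with a limma log2-fold change of 0.67 (SE 0.32, adjusted p = 0.25). BCL2L11, which encodes BIM, was at 565 against 659, 259 against 433 and 359 against 712, and BCL2L1, which encodes the prosurvival BCL-XL, at 3890.4 against 2948, 2824 against 1575 and 1701 against 1206. BCL2L1 was the 1 member lower at an unadjusted p under 0.05.

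To describe what the 3 lines shared, the 10 higher and the 10 lower genes whose smallest change over the lines was largest were taken. These changes chose the genes and are given as a description. The higher genes were PDZK1, MIR6087, ACSS2, GSTA1, TP53INP2, CXCL8, SLC44A3, BAAT, TM7SF2 and BMF, and the lower ones ETV4, DUSP6, NT5E, ABLIM3, ETV1, ITGA2, EPHA2, NR1D1, ETV5 and IER3. The smallest change of the last gene taken was 1.35 among the higher and 0.91 among the lower genes, and that of the next gene 1.35 and 0.87.

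Several of the higher genes have roles in liver metabolism and transport. PDZK1, a scaffold that holds the HDL receptor SR-BI at the membrane, went from 83.3 to 272 in Huh7, from 252 to 972 in Hep3B and from 24.6 to 146 in MHCC97H. GSTA1, a glutathione S-transferase typical of liver, went from 180.5 to 1389.9 in Huh7, from 4.69 to 51.2 in Hep3B and from 301 to 898 in MHCC97H, and BAAT, which conjugates bile acids to amino acids, had read counts of 16 and 52 in Huh7, 7 and 170 in Hep3B and 51 and 121 in MHCC97H. In all of them treated cells were above the untreated cells of their line, although GSTA1 and BAAT started from 5 and 7 reads in untreated Hep3B. TP53INP2, a regulator of autophagy, was at 474 against 1690.2, 404 against 2319 and 68.4 against 198, and SLC44A3, a choline transporter-like protein, at 162 against 441, 172 against 466 and 112 against 303. The log2-fold changes of SLC44A3, 1.44, 1.44 and 1.43, had an SD of 0.0065 over the lines. CXCL8, which encodes interleukin-8, was at 105 against 383, 97.6 against 344 and 61.5 against 172. MIR6087 is listed under a microRNA name in polyA+ libraries, at 60.8 against 975, 998 against 3121 and 350.3 against 1121, and the combination against AZD8055 gave log2-fold changes of -0.60, 0.25 and -0.59, so that its direction was not shared by the second pair of libraries in Huh7 and MHCC97H.

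Among the lower genes outside the ERK lists, NT5E, the ecto-5′-nucleotidase CD73, went from 870.5 to 270.0 in Huh7, from 841 to 39.1 in Hep3B and from 960.4 to 336 in MHCC97H. ITGA2, the collagen-binding integrin alpha 2 subunit, went from 531 to 76.7 in Huh7, from 823 to 84.5 in Hep3B and from 934 to 423 in MHCC97H, and passed in the fit to Huh7 and Hep3B (adjusted p = 0.0064). NR1D1, the clock repressor REV-ERB alpha, was at 53.9 against 23.6, 109.8 against 49.9 and 230.5 against 101, with log2-fold changes of -1.16, -1.12 and -1.18, and ABLIM3, an actin-binding LIM protein, at 262 against 89.3, 204 against 60.2 and 238 against 94.8. For NT5E, ITGA2 and ABLIM3 every treated library was below every untreated one, and for NR1D1 the ranges overlapped between lines.

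**Figure D3:**
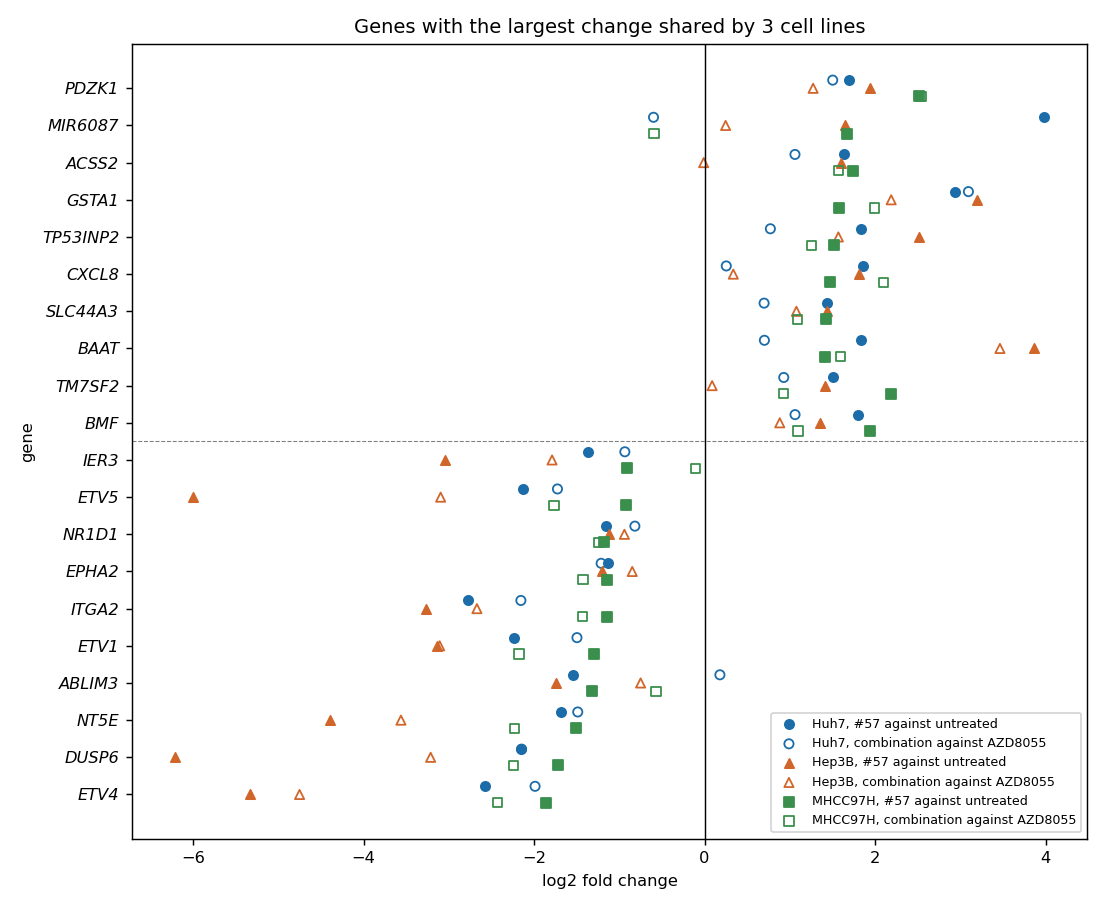
Log2-fold change of the 10 higher and 10 lower genes with the largest shared change in Huh7 (blue), Hep3B (orange) and MHCC97H (green). Filled marks are compound #57 against untreated, by which the genes were chosen, and open marks combination against AZD8055, which shares no library with them. Open marks lie on the same side for 9 of the 10 higher genes in each line, and for 9, 10 and 10 of the 10 lower genes in Huh7, Hep3B and MHCC97H. Over 9709 genes, 68.9%, 74.5% and 69.6% had the same sign in both comparisons.

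MYC targets were lower in all 3 lines, and least in MHCC97H. Of 57 members, 42 were lower at an unadjusted p under 0.05 and 0 higher (73.7%, against 8.1% of all genes), 49 were lower in all 3 lines, and 32 passed in the fit to Huh7 and Hep3B. The median was -0.62 in Huh7, -0.92 in Hep3B and -0.16 in MHCC97H, and the summed level went from 152277 to 102159, from 177167 to 102214 and from 160924 to 145754 normalised reads in Huh7, Hep3B and MHCC97H. BOP1, a factor for processing of the large ribosomal subunit RNA, was at 627 against 245, 1087 against 371 and 1712 against 1224, and MYBBP1A, a nucleolar protein, at 1367 against 574, 2083 against 751 and 2155 against 1799. Both passed in the fit to Huh7 and Hep3B (adjusted p = 0.027 and 0.022). The nucleolar proteins NCL and NPM1 had log2-fold changes of -0.64, -1.15 and -0.15 and of -0.68, -0.92 and -0.17. HK2 was the one member at least 1.5-fold higher in any line, with changes of -0.56, -2.17 and 0.96.

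Cytosolic ribosomal protein genes were lower by a small amount. All 78 were in the table, and 55 had an unadjusted p under 0.05 and a lower value (70.5%) and 0 a higher value. In all 3 lines 70 of the 78 were lower, against 2139 of the 9709 genes. The medians were -0.27, -0.52 and -0.26. Their summed level went from 315705 to 257800 in Huh7, from 347988 to 238804 in Hep3B and from 303329 to 256683 in MHCC97H. Only 2 passed in the fit to Huh7 and Hep3B, RPL12 and RPS2 (2.56%, against 2.69% of all genes called lower). The members with the largest mean change were RPS10, at 187 against 104, 300.2 against 168 and 217 against 134, and RPL17, at 42 against 31.7, 58.2 against 27.5 and 56.9 against 35.1; both genes overlap a readthrough gene, and ribosomal protein genes have many near-identical copies, so that their counts depend on a counting step that is not given in the sources used here.

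Glycolysis genes were lower as well. Of 20 members 11 were lower at an unadjusted p under 0.05 (55.0%) and 0 higher, with medians of -0.64, -0.45 and -0.16, and the summed level went from 94662 to 54981, from 94768 to 58144 and from 189182 to 146937. As a mean over members the change in MHCC97H was -0.026. PKM, pyruvate kinase, went from 13656 to 6742 in Huh7, from 10785 to 5374 in Hep3B and from 51917 to 33299 in MHCC97H, and LDHA, which makes lactate and is also in the MYC list, from 8550.3 to 4113 in Huh7, from 5933 to 2674 in Hep3B and from 9969 to 7822 in MHCC97H. Both were lower in each pair and passed in the fit to Huh7 and Hep3B (adjusted p = 0.038 and 0.043). ENO1, enolase, was at 14743 against 7768, 15571 against 9372 and 26921 against 22815. GAPDH, often used as a reference gene, had log2-fold changes of -0.79, -0.64 and -0.39.

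Cell cycle genes gave a weaker picture. Of 40 G2/M genes 11 were lower at an unadjusted p under 0.05 (27.5%) and 0 were higher, with medians of -0.23, -0.65 and -0.17. In all 3 lines 30 of the 40 were lower, against 2139 of the 9709 genes. PLK1, the mitotic kinase, was at 1364 against 921, 2434 against 1329 and 2289 against 1472, and KIF2C, a kinesin of chromosome segregation, at 1076 against 851, 1222 against 599 and 801 against 584. PLK1 passed in the fit to Huh7 and Hep3B (adjusted p = 0.042), and KIF2C did not (0.079). None of 40 S-phase genes had an unadjusted p under 0.05 in the limma fit over the 3 lines. Without MHCC97H 1 passed, ORC1 (2.5%, against 2.69% of all genes called lower). Their medians were -0.22, -0.23 and 0.11, the last of which was -0.0018 with centred libraries. ORC1, a subunit of the origin recognition complex, was at 452 against 272, 404 against 185 and 498 against 487, and CDC45, a helicase cofactor, at 621 against 418, 481 against 277 and 401 against 369.6.

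Genes of cholesterol and fatty acid synthesis were higher in all 3 lines and most in MHCC97H. Of 33 members, 17 were higher at an unadjusted p under 0.05 and 0 lower (51.5%, against 13.6% of all genes). In all 3 lines 27 were higher (81.8%, against 29.0% of the 9709 genes). In the fit to Huh7 and Hep3B 8 passed (24.2%, against 4.04% of all genes called higher). The median was 0.45 in Huh7, 0.58 in Hep3B and 1.12 in MHCC97H. In MHCC97H 18 members were at least 2-fold higher (1.81% of all genes were), in Huh7 and Hep3B 3 each. The summed level went from 187703 to 248224, from 139042 to 177244 and from 42715 to 74454, so that MHCC97H started from the lowest level.

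TM7SF2, a sterol reductase, was at 251 against 715, 641 against 1703 and 17.7 against 84.3, and ACSS2, which makes acetyl-CoA from acetate, at 1203 against 3745, 519 against 1575 and 214 against 721. HMGCS1, the synthase that opens the mevalonate pathway, had log2-fold changes of 0.74, 0.94 and 1.57. LSS, which closes the sterol ring system, was at 2994 against 5208, 2479 against 6108 and 598 against 1511. SREBF2, the factor that activates cholesterol synthesis genes, had changes of 0.45, 0.52 and 0.73, and SREBF1, which favours fatty acid synthesis genes, of -0.24, -0.044 and -0.28. The fatty acid genes ACACA, ACLY and FASN were nearer 0, with FASN at 0.043, -0.095 and 0.37.

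**Figure D4:**
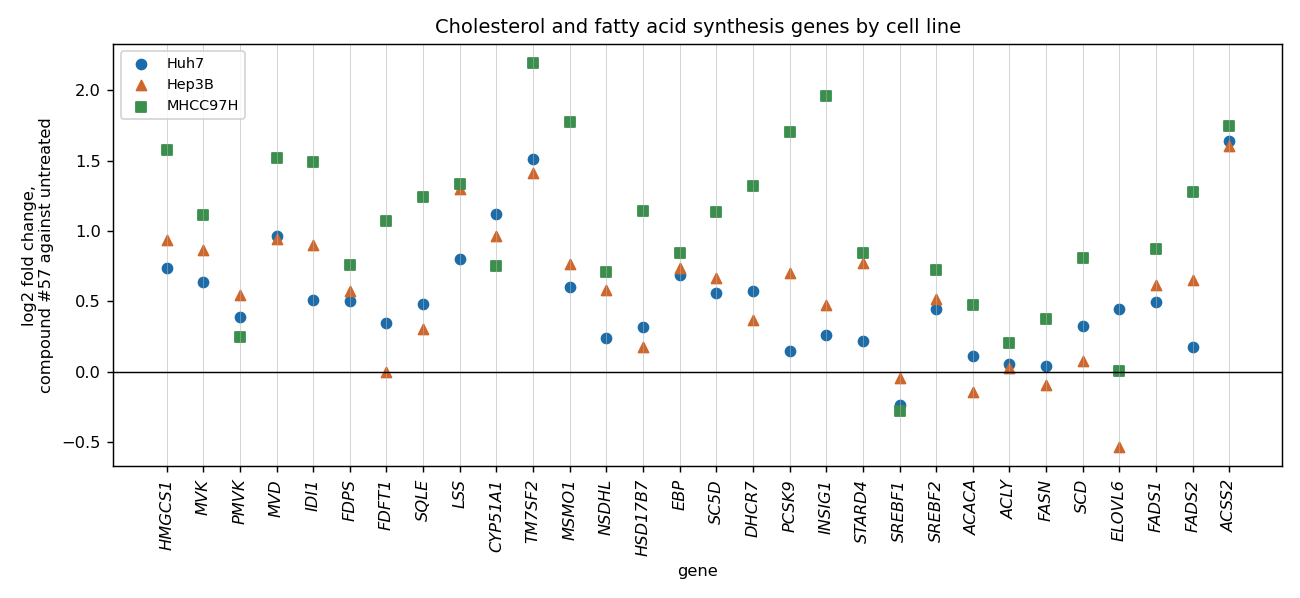
Log2-fold change of 30 of the 33 cholesterol and fatty acid synthesis genes in Huh7 (blue circles), Hep3B (orange triangles) and MHCC97H (green squares), ordered from the mevalonate pathway through sterol synthesis, uptake and regulation to fatty acid synthesis. MHCC97H marks are above both other lines for all genes from HMGCS1 to DHCR7 but PMVK and CYP51A1, TM7SF2 and ACSS2 are above 1.4 in all 3 lines, and SREBF1 is below 0 in all 3.

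Secreted liver proteins were higher, from very different starting levels. Of 34 members 16 were higher and 1 lower at an unadjusted p under 0.05 (47.1% and 2.9%), with medians of 0.48, 0.87 and 0.79. In the fit to Huh7 and Hep3B 11 higher and 3 lower members passed (32.4% and 8.8%, against 4.04% and 2.69% of all genes). The summed level went from 534501 to 650575 in Huh7, from 495621 to 787813 in Hep3B and from 10569 to 15239 in MHCC97H. In MHCC97H 5 members had 3 or fewer reads in both libraries, and with members under 25 reads left out the median there was 0.45. ALB, serum albumin, went from 40749 to 76491 in Huh7, from 211080.0 to 402560.0 in Hep3B and from 303 to 732 in MHCC97H. FGB and FGG, subunits of fibrinogen, went from 14099 to 25604 in Huh7, from 1896 to 23992 in Hep3B and from 191 to 1025 in MHCC97H (FGB) and from 5503 to 11080.0 in Huh7, from 3272 to 24994 in Hep3B and from 16.1 to 133 in MHCC97H (FGG). FGG passed in the fit to Huh7 and Hep3B (adjusted p = 0.047) and FGB did not (0.096). APOA1, the main protein of HDL, was at 4956 against 13933, 2384 against 16178 and 3.84 against 7.03, and TF, transferrin, at 23753 against 31254, 30726 against 58050.0 and 36.1 against 85.2. The list was not uniform: APOB, the LDL protein, had changes of -0.73, -1.13 and 0.19, CP, ceruloplasmin, of -2.01, -3.89 and 1.51, and TFPI, an inhibitor of coagulation, of -1.13, -2.55 and -0.36.

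Of 27 hepatocyte metabolism genes, 9 were higher and 1 lower at an unadjusted p under 0.05 (33.3% and 3.7%), with medians of 0.31, 0.35 and 0.41. In the fit to Huh7 and Hep3B 6 higher and 1 lower passed (22.2% and 3.7%, against 4.04% and 2.69% of all genes). ALDH1A1, which oxidises retinaldehyde, went from 23700.0 to 44036 in Huh7, from 6541 to 19778 in Hep3B and from 24203 to 55792 in MHCC97H, and every treated library was above the untreated one of its line by a log2-fold change of at least 0.89. CPT1A, which carries fatty acids into mitochondria, was at 12.5 against 53.9, 339 against 1655 and 1667 against 2465. HNF4A, the nuclear receptor that maintains hepatocyte identity, was at 3026 against 4322, 2079 against 3187 and 595 against 957, with changes of 0.51, 0.62 and 0.68 and an adjusted p of 0.046 without MHCC97H. Among 12 lineage markers 5 were higher and 1 lower at an unadjusted p under 0.05 (41.7% and 8.3%), with medians of 0.25, 0.55 and 0.27. Of the 8 markers of other cells in the table none was higher and 1 lower at that threshold (12.5%). Their medians of 0.28, 0.70 and 0.27 were no smaller than about those of the lineage markers, so the medians did not set the lists apart. As means the markers of other cells were at -0.069 in Huh7 and 0.17 in Hep3B. In MHCC97H 2 of the 8 had 3 or fewer reads in both libraries, and the median there was 0.12 with 10 added to the linear values. The marker of other cells lower at that p was the biliary and progenitor factor SOX9, at 1748 against 998, 1702 against 902 and 66.1 against 47.4. LUM, lumican, was at 36.3 against 50.9, 61.9 against 115 and 397 against 823. In bulk RNA, fewer cells of a type and less RNA per cell cannot be told apart.

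Of 22 acute phase and STAT3 target genes, 3 of them the fibrinogen genes of the list above, 9 were higher and 0 lower at an unadjusted p under 0.05 (40.9%). Their medians were 0.61, 0.69 and 0.35, and 3 passed in the fit to Huh7 and Hep3B (13.6%, against 4.04% of all genes called higher). In MHCC97H the median was 0.099 with members under 25 reads left out. SOCS2, a feedback inhibitor of cytokine receptors, was at 8.15 against 35.4, 2.81 against 131 and 111 against 269.6, on 3 reads in untreated Hep3B. Of 27 interferon-stimulated genes 13 were higher and 0 lower (48.1%), with medians of 0.37, 0.58 and 0.39, and 4 passed in that fit (14.8%). TAP1, the peptide transporter of antigen presentation, was at 13.2 against 45.7, 58.2 against 188 and 195 against 256, and IFIH1, the RNA sensor MDA5, at 13.2 against 37.6, 97.6 against 154 and 49.9 against 129.9. HLA-B and HLA-C, MHC class I heavy chains whose reads can be split between related genes, had changes of 1.38, 0.96 and 0.61 and of 0.82, 1.11 and 0.57, and the interferon regulatory factor IRF1 of 0.69, 1.16 and 0.53.

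FOXO targets, genes that FOXO factors induce when AKT signalling is low, were higher in 9 of 22 members and lower in 0 at an unadjusted p under 0.05 (40.9%), with medians of 0.40, 0.48 and 0.76, but 0 members passed in the fit to Huh7 and Hep3B (4.04% of all genes were called higher there). KLHL24, a ubiquitin ligase adaptor, was at 293 against 573, 493 against 734 and 169.8 against 372, and GADD45B, a stress sensor, at 126 against 176, 145 against 648 and 90.7 against 132. Lysosome genes were higher in 12 of 35 members and lower in 0 (34.3%), with medians of 0.24, 0.32 and 0.27, and 2 passed in that fit (5.7%). CTSH, cathepsin H, was at 142 against 223, 117 against 457 and 638 against 921, and GABARAPL1, an autophagy protein of the ATG8 family, at 199 against 288, 131 against 280.4 and 124 against 269.6. ATF4 targets were near the background, 4 higher and 2 lower of 30 (13.3% and 6.7%). PSPH, the last enzyme of serine synthesis, was at 1527 against 2496, 911 against 2613 and 483 against 934, and SLC1A5, a glutamine transporter, at 1035 against 404, 2284 against 1093 and 5542 against 5450.0.

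RTK as a class had no common direction. Of 58 RTK fixed for the list 21 were in the table, 4 higher and 4 lower at an unadjusted p under 0.05 (19.0% each), with medians of -0.25, -0.17 and 0. In MHCC97H 3 members had 3 or fewer reads in both libraries. The higher ones at that p were ERBB2, INSR, EPHA1 and DDR1, and the lower ones PDGFRB, AXL, TYRO3 and EPHA2. PDGFRB had a log2-fold change of 0 in MHCC97H, and AXL was near the floor in Huh7 and Hep3B, as given below. ERBB2, the HER2 receptor, was at 999 against 1414, 512 against 1151 and 93 against 146, and passed without MHCC97H (adjusted p = 0.044). INSR, the insulin receptor, was at 578 against 874, 551 against 1041 and 245 against 326, and DDR1, a collagen receptor, at 209.9 against 277, 578 against 1192 and 850.5 against 1374. EGFR, the receptor of epidermal growth factor, was higher in Huh7 and Hep3B and lower in MHCC97H, at 3516 against 5092, 1884 against 4604 and 2644 against 1787. The FGF receptor FGFR1 was at 1034 against 471, 465 against 209 and 0 against 1.76, lower in Huh7 and Hep3B (adjusted p = 0.025 without MHCC97H) and on 0 and 2 reads in MHCC97H. Of 18 RTK ligands 2 were higher and 0 lower (11.1%). PDGFA, a platelet-derived growth factor chain, was at 6.89 against 45.7, 135 against 573 and 70.7 against 89.6, and AREG, amphiregulin, an EGFR ligand, at 11.3 against 57.5, 84.4 against 269.6 and 183 against 102, higher in Huh7 and Hep3B and lower in MHCC97H.

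YAP and TEAD targets were higher in 9 of 22 members and lower in 3 (40.9% and 13.6%), with medians of 0.47, 0.84 and 0.28 and means of 0.30, 0.38 and 0.051. In the fit to Huh7 and Hep3B 5 passed, all higher (22.7%, against 4.04% of all genes). ANKRD1, an ankyrin repeat protein, was at 894 against 1552, 759.9 against 2863 and 49.9 against 127, while NT5E and AXL of this list were lower. Matrix, integrin and motility genes were higher in 9 of 38 and lower in 7 (23.7% and 18.4%), with medians of 0.24, 0.27 and -0.19. LAMA3, the laminin alpha 3 chain, went from 42.6 to 364 in Huh7, from 51.6 to 1559.7 in Hep3B and from 1125 to 1416 in MHCC97H. CDH1, E-cadherin, was at 958 against 1604, 1155 against 2746 and 196 against 365, higher in all 3 lines, and passed in the fit to Huh7 and Hep3B (adjusted p = 0.031).

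**Figure D5:**
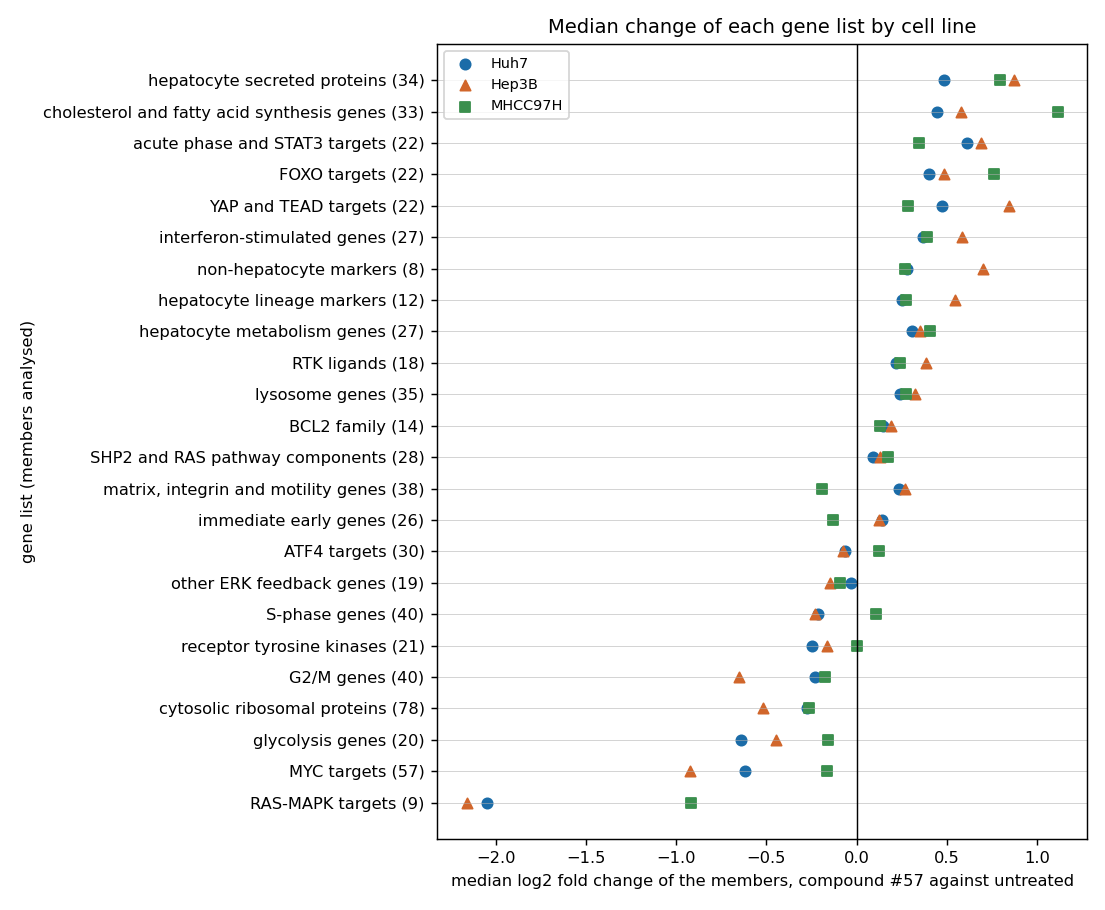
Median log2-fold change of the members of 24 gene lists with compound #57 in Huh7 (blue circles), Hep3B (orange triangles) and MHCC97H (green squares), with the number of members in the table after each name. The RAS-MAPK targets stand lowest in each line (-2.05, -2.16 and -0.92), 13 lists are above 0 in all 3 lines and 6 below 0 in all 3, and no error is drawn because each median comes from 1 pair of libraries.

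The largest changes within a line differed between lines. In Huh7, the higher ones were MIR6087, LAMA3 and SLC15A1, a peptide transporter, at 5.64 against 53.1, 60.0 against 597 and 25.4 against 25.5 in the 3 pairs, and the lower ones EGR1, NAV3, a neuron navigator protein, at 109 against 4.43, 6.57 against 8.32 and 831 against 522, and LFNG, a glycosyltransferase that modifies Notch, at 124 against 6.64, 66.6 against 15.4 and 46.9 against 72. In Hep3B, MDGA1, a membrane-bound adhesion protein, had 2 reads untreated and 523 with compound #57 (log2-fold change 6.87, 95% interval 5.62 to 10.53), NPPB, which encodes brain natriuretic peptide, 2 and 183, and LYPD1, a LY6 family protein, 3 and 221 (log2-fold change 5.22, 95% interval 4.09 to 7.94). These genes were all but silent in untreated Hep3B, and the genes with the largest decrease there were SPRY4, DUSP6 and ETV5. In MHCC97H, FGG, the selenium carrier SEPP1 and the serine protease TMPRSS2 were highest by change, with SEPP1 at 14300.0 against 13676, 3567 against 5481 and 38.4 against 298 and TMPRSS2 at 5.64 against 13.3, 90.1 against 248 and 40.0 against 248. The genes with the largest decrease in MHCC97H were CLDN2, a tight junction claudin, at 122 against 100.3, 9.38 against 7.68 and 322 against 43, the RTK AXL at 0.627 against 0, 5.63 against 1.28 and 578 against 109.8, and OLFML3, a secreted matrix protein, at 689 against 808, 500.0 against 1083 and 82.2 against 15.8. AXL had 6 reads or fewer in both other lines.

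Adding compound #57 to AZD8055 gave a second view of the drug, from libraries that were not in the first comparison. The cell lines and times were the same. Over 9709 genes, the log2-fold changes of combination against AZD8055 and of compound #57 against untreated correlated across genes with r = 0.597 in Huh7, 0.768 in Hep3B and 0.655 in MHCC97H (Spearman's rho 0.543, 0.696 and 0.549), and 68.9%, 74.5% and 69.6% of genes had the same sign. Of 2816 genes higher in all 3 lines with compound #57 alone, 1403 were also higher in all 3 on top of AZD8055 (49.8%, against 23.1% of all 9709 genes), and of 2139 lower genes 1012 were also lower (47.3%, against 17.8%). Of the ERK output genes, DUSP6, ETV4, SPRY4, ETV1 and EPHA2 had the same direction again in all 3 lines. On top of AZD8055 the changes were -2.15, -3.21 and -2.24 for DUSP6, -1.99, -4.75 and -2.43 for ETV4, -3.27, -3.79 and -1.70 for SPRY4, -1.50, -3.11 and -2.18 for ETV1 and -1.21, -0.85 and -1.43 for EPHA2. In Hep3B the change of DUSP6 was -6.21 alone and -3.21 on AZD8055, and in MHCC97H -1.72 and -2.24. BMF was higher again, with 1.06, 0.88 and 1.10, and limma gave 1.01 (SE 0.15, adjusted p = 0.12) for combination against AZD8055. EGR1 was lower in Huh7 and Hep3B and not in MHCC97H (-2.65, -5.96 and 0.24).

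The gene lists did not all behave the same on top of AZD8055. The RAS-MAPK targets had medians of -1.55, -1.42 and -1.47 in Huh7, Hep3B and MHCC97H, and the MYC targets of -0.36, -0.54 and -0.25. The cytosolic ribosomal proteins, lower in each line with the compound alone, had medians of 0.09, -0.06 and 0.02. The cholesterol and fatty acid synthesis genes had -0.09 and -0.41 in Huh7 and Hep3B and 1.15 in MHCC97H. For these lists the values with the compound alone and on AZD8055 stand side by side, and their difference was not tested here. FOXO targets (0.27, 0.39 and 0.57), lysosome genes (0.19, 0.23 and 0.24) and hepatocyte secreted proteins (0.57, 0.10 and 0.41) were above 0 in all 3 lines again.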

How the data were processed

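RNA was extracted from the 3 cell lines with an RNeasy kit, and stranded polyA+ libraries (TruSeq) were sequenced and aligned to hg38. The authors deposited 1 table of 11548 genes with log2 values for 12 libraries. The aligner, the counting and the normalisation are not given in the sources used here, so the scale was read from the values: 2 raised to a value, less 1, gave whole multiples of 1 read in every library (tolerance 0.1 reads), scaled to 10000000 reads per library, with 0.001 written for 0 reads. The share of values that came out whole was 100%. The 12 columns all belong to this series, and 0 columns belong to other samples. Dates stood in place of 18 gene names and 3 names stood on 2 lines. Coordinates come from GENCODE release 44, with 10558 symbols matched (91.4%), and promoters from RefSeq (GRCh38.p14).

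The log2 values of all 12 libraries were fitted with limma 3.58.1 in R 4.3.3, with treatment and cell line as terms, an intensity trend and Benjamini-Hochberg adjustment over all genes (threshold 0.05), after the script had been tested on simulated data. The pairing comes from the cell line, which each pair of libraries shares. A second fit, given throughout, left out MHCC97H and had the most calls of the fits that left out a line. Fold changes are on the log2 scale with 1 added to the linear value, which understates those of low genes. Within a line, 2-fold differences were counted among genes with at least 50 reads in the higher library, and single ratios of reads carry exact Clopper-Pearson 95% intervals for counting error only. The other alternatives were 10 added in place of 1, only the 75% of genes with the highest mean, centred libraries, no block, the 6 compared libraries alone, each line left out in turn, voom on the whole reads and no trend. For lists, members with at least 25 reads in both libraries and means were tried. Tables were handled in Python 3.11.15 (pandas 2.3.3, numpy 2.4.6), intervals came from scipy 1.17.1 and plots from matplotlib 3.10.9.

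The members and the 24 lists were chosen with earlier results of these data known, and lists share members. Genes were named by rule: PTPN11 and the RAS-MAPK targets; the 10 genes of each direction whose smallest change over the 3 lines was largest; in each line, the 3 top higher and 3 top lower genes by size of change; the 2 members of each list with the largest absolute mean change; and the genes called by limma. Any other gene was picked after its values were seen. AZD8055 against untreated was not compared here. Values of a few list members are not reported here.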

Additional observations from a re-analysis of the deposited data

Results flagged for a closer look

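In 3 gene lists and 9 named genes the pair of MHCC97H libraries (24 h) pointed the other way from both pairs at 48 h, with libraries as deposited and with libraries centred on their medians, among genes with at least 50 reads in the higher library of each pair. Each is 1 pair per line and the difference was not tested. The median log2-fold change of immediate early genes was -0.13 in MHCC97H, against 0.14 in Huh7 and 0.12 in Hep3B. As means these genes were at -0.036 in Huh7 and -0.062 in Hep3B, on the same side of 0 as the MHCC97H median. The median of matrix, integrin and motility genes was -0.19 in MHCC97H, against 0.24 and 0.27, and that of ATF4 targets, the amino acid stress response genes, was 0.12, against -0.066 and -0.076. The ATF4 median in MHCC97H was only 0.014 with centred libraries, and as a mean the ATF4 targets in Hep3B were at 0.032, above 0. Among genes named by the rule, PHLDA1 had a log2-fold change of -0.92 in MHCC97H, against 1.45 in Huh7 and 1.25 in Hep3B. AREG had -0.84, against 2.25 and 1.66, and LFNG had 0.61, against -4.03 and -2.05. OLFML3 had -2.31, against 0.23 and 1.11, and DUSP4 had -0.80, against 0.084 and 0.98. Among genes picked after their values were seen, CP had 1.51 in MHCC97H, against -2.01 and -3.89, and APOB had 0.19, against -0.73 and -1.13. EGFR had -0.56, against 0.53 and 1.29, and KRT19 had -0.57, against 0.63 and 1.42.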

How the results depend on the processing

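The number of genes called with compound #57 over the 3 lines was 1 by limma as fitted. It was 0 with no replicate block (210 genes at an unadjusted p under 0.05), 0 with the 6 compared libraries and their replicate block alone (2848 genes at that p) and 90 by voom on whole reads, and it ranged from 0 (without Huh7, 1171 genes at that p) to 778 (without MHCC97H) when a line was left out. The adjusted p of BMF ran from 0.0038 with 10 added to about 1 with no block, and it was 0.48 without Huh7. The log2-fold change reversed for 3 named genes near 0 or of mixed direction: PTPN11 was -0.013 with centred libraries, DUSP4 was -0.21 by voom and ran from -0.36 to 0.53 over the lines left out, and OLFML3 was 0.41 by voom and ran from -1.04 to 0.67. The cause was not tested. Of the other values of named genes, 650 had the same direction and side of the threshold, 52 passed it newly and 3, all of BMF, no longer did. Counts of 2-fold genes followed the minimum of reads: 271 higher in Huh7 and 94 in MHCC97H with 200 reads, and 360 higher and 97 lower in MHCC97H with no minimum. Genes 1.5-fold lower in all 3 lines numbered 57 with centred libraries and 8 at 2-fold, and genes higher 31 at 2-fold. Among list medians, the RAS-MAPK targets were -1.33 in Huh7 and -2.98 in Hep3B as means and -0.65 in Hep3B with 25 reads. In MHCC97H, secreted proteins were 0.32 with 10 added and 0.45 with 25 reads, and FOXO targets 0.544 and 0.541, while interferon-stimulated genes in Huh7 were 0.52 as a mean. Depth limits genes with few reads, as for DUSP6, SPRY4, ETV4 and ETV5 in treated Hep3B.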
